A study of Mus musculus with 22 samples.

Results

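The genes described here are the nuclear genes for complexes II to V of the mitochondrial respiratory chain and for cytochrome c, measured in kidneys of young, old and nicotinamide-fed old mice. They were chosen by symbol alone: Sdha, Sdhb, Sdhc, Sdhd, Cyc1 and Cycs, and all symbols that begin with Uqcr, with Cox4 to Cox8 or with Atp5, without the 7 pseudogenes marked -ps. Of 55487 gene entries in the deposited table, 51 met the rule. Complex II had 4 of them, complex III 9, cytochrome c 1, complex IV 19 and complex V 18. They carried 50 symbols, because Atp5o had a further entry that held no count. For 46 of the 51, expression was high enough to be tested; Cox4i2, Cox7b2, Cox8b, Cox8c and the empty Atp5o entry were not.

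All mice were male wild-type C57BL/6JRj. Young control mice were 4 months old (n = 6), old control mice 21 months (n = 8), and a further old group (n = 8) was fed nicotinamide (NAM), a B3 vitamin from which cells make NAD. The food held 1.6 g per kg for 14 weeks, which the design text equates with 200 mg per kg body weight a day. Each library came from a piece of kidney tissue of 1 animal of 1 sex and 1 strain, so in all that follows fewer cells of a type and less RNA per cell cannot be told apart.

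The respiratory chain passes electrons from NADH and succinate to oxygen and stores the energy as a proton gradient across the inner mitochondrial membrane. Complex II is succinate dehydrogenase, which also works in the citric acid cycle; complex III hands electrons from ubiquinol to cytochrome c; complex IV, cytochrome c oxidase, reduces oxygen; and complex V, ATP synthase, uses the gradient to make ATP. The proximal tubule, which makes up much of the kidney cortex, is rich in mitochondria and depends on this chain to power reabsorption. Complex II is encoded in the nucleus alone, whereas complexes III, IV and V also contain subunits encoded in mitochondrial DNA.

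Levels are given as CPM, that is, the counts of a gene in each 1000000 counts of a library after scaling with its TMM factor. The kit reads the 3′ end of a polyadenylated transcript, so a transcript gives about the same number of reads whatever its length, and CPM was not divided by length. Differences are log2 fold changes ± SE from 1 edgeR quasi-likelihood fit of all 22 libraries, and a gene was called at a Benjamini-Hochberg adjusted p under 0.05 over the 14683 genes tested. All adjusted p below are from that fit unless another tool is named.

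The libraries held 3351065 to 8319865 gene counts. Reads that the counting assigned to no feature made up 20.5% ± 1.30 (SD) of the total for young mice. The share was 22.8% ± 1.25 for old and 21.6% ± 1.41 for fed mice. Markers of the proximal tubule, the cell type expected to dominate the tissue, were abundant: 16 markers summed to 34978 to 39809 CPM in young kidneys, to 22742 to 33731 in those of old mice and to 16000 to 37468 after feeding. The lowest sum of each old group belonged to old replicate 7 and nicotinamide replicate 1. The same libraries were the lowest of their groups for 26 and 32 of the 46 tested members, and young replicate 5 was the lowest of the young for 25. Old replicate 7 and nicotinamide replicate 1 also held the highest sums of their groups for adipocyte markers (205 and 521 CPM) and urothelium markers (99.6 and 106 CPM). Macrophage markers summed to 152 to 187 CPM in young kidneys, 270 to 513 with age and 289 to 582 with age and feeding. The part of these differences in the results on the members was not tested; values that bear on it are given beside the results.

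Old against young kidneys gives the difference with age. Each of the 4 complexes had members called lower in old kidneys, 13 of 46 tested in all, against 3.15% of all genes tested, and most members did not pass. The summed level of all members was 14520 to 16310 CPM in young kidneys (median 15846), 11354 to 14370 in old (median 13401) and 10646 to 14768 in kidneys of fed mice (median 13444). Each old kidney lay below each young one in this sum, whereas 1 fed kidney, replicate 5, reached into the young range.

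Of the 46 tested members only 1, Cox6b2, was called higher in old than in young kidneys, against 3.9% of all genes. An unadjusted p under 0.05 was reached by 28 members, against 20.7% of all genes. The estimate was below 0 for 41 members, where 48.1% of all genes were below 0, and the median log2 fold change of the members was −0.22 against 0.01 for all genes. The count of members below 0 stayed at 41 with DESeq2 size factors, with upper quartile scaling and with mitochondrially encoded and ribosomal RNA genes left out. It was 39 with limma-voom and 39 to 42 with 1 library left out. Without young replicate 6, old replicate 7 and nicotinamide replicates 1 and 7 it was 38, with a median of −0.18. For 9 members, 1 of them not called, the old and young groups did not overlap and old was lower, a pattern shown by 1.31% of all genes. The number of calls moved with single libraries: it was 9 instead of 14 without old replicate 7, without young replicate 2 or without young replicate 4. With young replicate 6, old replicate 7 and nicotinamide replicates 1 and 7 all left out it was 13.

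**Figure D1:**
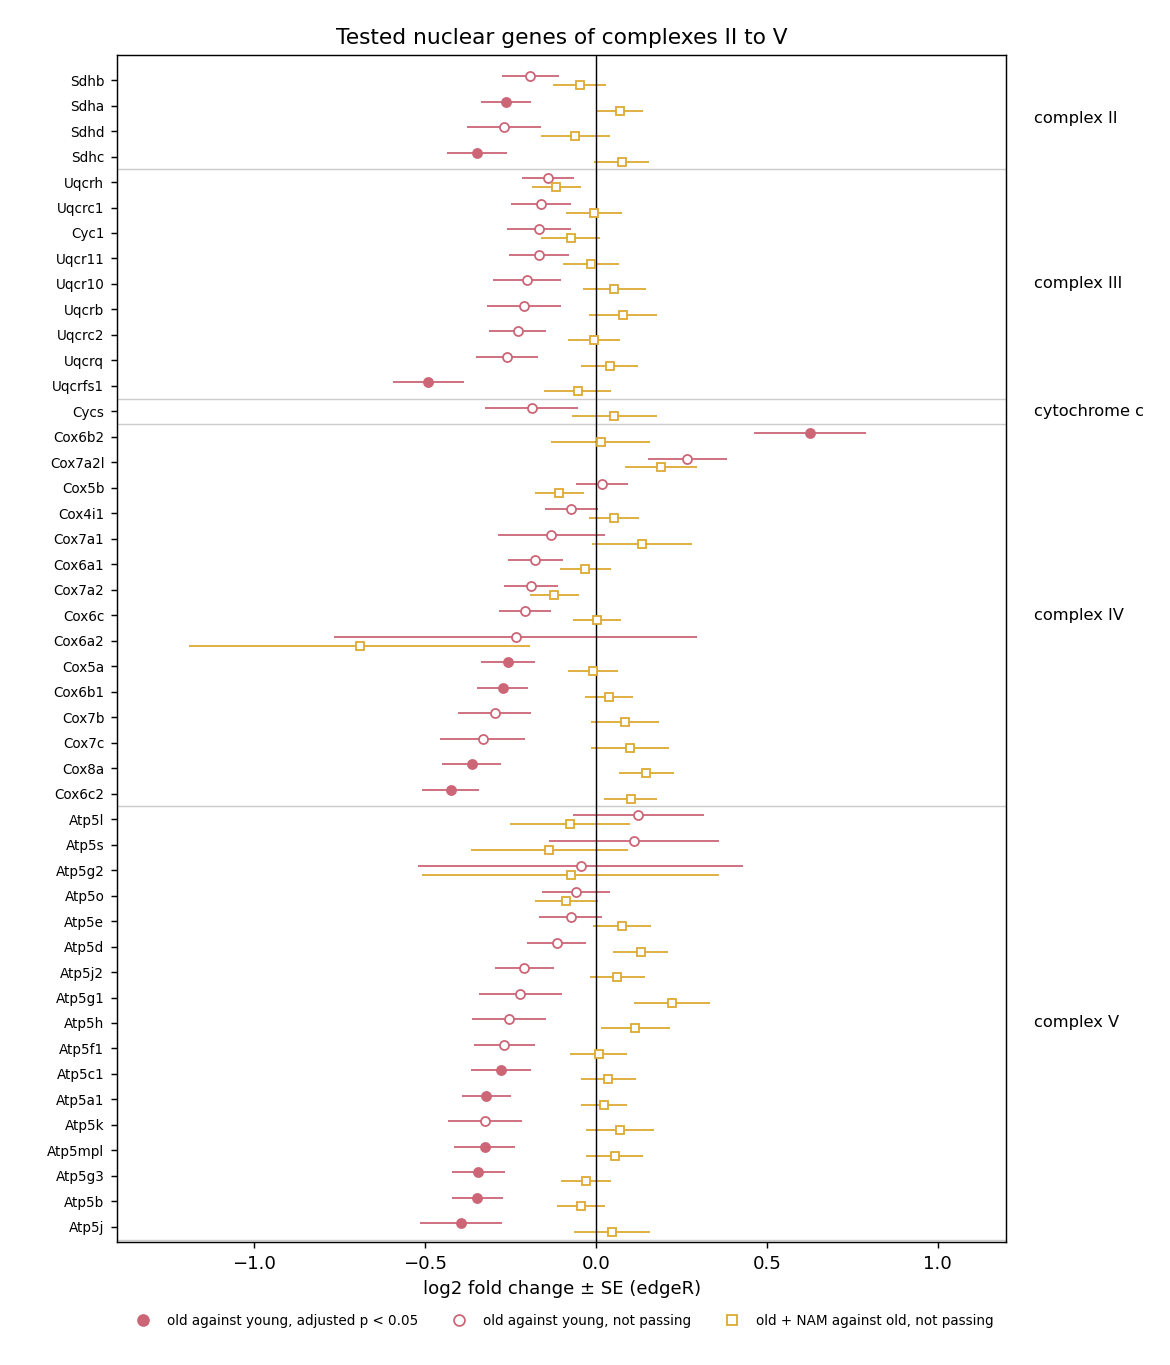
Each point is the log2 fold change of 1 tested member with its SE as a bar, for old against young kidneys (circles, filled where the adjusted p is under 0.05) and for nicotinamide-fed old against untreated old kidneys (squares), grouped by complex. For old against young 41 of 46 circles lie left of 0 and 14 are filled; the squares lie on both sides of 0 with a median of 0.03.

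The promoters of these genes were searched for letters bound by known regulators of the respiratory chain (NRF1, ETS factors, YY1 and ERR alpha) and for the TATA box of core promoters. RefSeq promoters on GRCm38.p6, from 250 bases before to 50 after the transcript start, were found for 36 of the 50 symbols; Atp5a1, Atp5mpl, Atp5s, Cox4i1, Cox4i2, Cox6a2, Cox6c, Cox6c2, Cox8c, Cyc1, Sdhc, Uqcrb, Uqcrc2 and Uqcrq had none there. The 250 bases before the start are shown for the most significant called members with a promoter (Uqcrfs1, Cox8a, Atp5b, Atp5g3), for Cox6b2 as the member that rose, and for Cycs as an example that holds the NRF1 letters. Capitals mark a match on either strand. The windows, in order, are chr6:50566570-50566819 (minus strand), chr13:30545317-30545566 (minus), chr19:7217617-7217866 (minus), chr7:4753095-4753344 (minus), chr10:128083057-128083306 (plus) and chr2:73911327-73911576 (minus).
Cycs: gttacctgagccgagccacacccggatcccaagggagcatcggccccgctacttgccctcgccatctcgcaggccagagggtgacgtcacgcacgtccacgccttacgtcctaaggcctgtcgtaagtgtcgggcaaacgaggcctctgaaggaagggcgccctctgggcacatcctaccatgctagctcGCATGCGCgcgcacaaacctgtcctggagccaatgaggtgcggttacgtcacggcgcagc
Uqcrfs1: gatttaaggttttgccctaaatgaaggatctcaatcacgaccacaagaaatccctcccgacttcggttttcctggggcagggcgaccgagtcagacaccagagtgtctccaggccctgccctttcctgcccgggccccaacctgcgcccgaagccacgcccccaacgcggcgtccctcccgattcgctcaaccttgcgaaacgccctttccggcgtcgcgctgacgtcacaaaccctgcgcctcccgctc
Cox8a: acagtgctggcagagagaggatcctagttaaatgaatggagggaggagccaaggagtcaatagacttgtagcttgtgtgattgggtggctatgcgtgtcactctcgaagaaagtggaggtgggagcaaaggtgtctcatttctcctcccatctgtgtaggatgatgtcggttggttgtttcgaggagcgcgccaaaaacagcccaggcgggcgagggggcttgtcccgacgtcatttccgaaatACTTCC
Cox6b2: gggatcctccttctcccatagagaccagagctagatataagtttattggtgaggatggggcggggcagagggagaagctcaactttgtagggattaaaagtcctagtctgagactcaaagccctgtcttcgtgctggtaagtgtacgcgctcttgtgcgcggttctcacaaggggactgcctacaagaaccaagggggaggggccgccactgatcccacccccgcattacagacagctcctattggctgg
Atp5b: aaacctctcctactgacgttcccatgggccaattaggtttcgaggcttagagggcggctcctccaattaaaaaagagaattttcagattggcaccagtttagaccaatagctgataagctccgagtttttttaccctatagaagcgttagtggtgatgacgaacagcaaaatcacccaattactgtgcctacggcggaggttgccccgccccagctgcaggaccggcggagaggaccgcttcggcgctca
Atp5g3: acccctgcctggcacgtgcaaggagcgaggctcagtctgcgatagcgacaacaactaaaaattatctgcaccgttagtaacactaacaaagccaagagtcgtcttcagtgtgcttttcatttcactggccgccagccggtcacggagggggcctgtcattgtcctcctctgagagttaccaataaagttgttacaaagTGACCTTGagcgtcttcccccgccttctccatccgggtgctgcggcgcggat
In Cycs the capitals are an NRF1-type match 60 bases before the start. In Cox8a they are the first letters of an ETS-type match that begins 6 bases before the start and runs past it; a second match begins 32 bases after the start. In Atp5g3 they are an ERR-type match 52 bases before the start. The windows of Uqcrfs1, Cox6b2 and Atp5b hold none of the letters searched.

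The letters searched on both strands were GCGCATGC (NRF1 type), CCGGAAGT (ETS type), AAGATGGC (YY1 type), TGACCTTG (ERR type) and TATAAA (a core promoter box). A gene was counted if any of its promoters held the letters. The NRF1 letters stood in 8 of 36 members (22.2%), namely Atp5g2, Atp5k, Atp5l, Cox6a1, Cycs, Sdhb, Uqcr11 and Uqcrc1. They stood in 3.05% of all 27025 genes with a promoter and in 5.56% of the 10409 tested ones. None of these 8 was among the 9 called-lower members with a promoter. The ETS letters stood in 4 members (11.1%, against 4.31% of all genes with a promoter and 8.77% of the tested ones). The YY1 letters stood in 3 (8.33%, against 3.19% and 5.11%) and the ERR letters in 3 (8.33%, against 1.76% and 1.29%). Of the called-lower members, Cox8a held the ETS letters, Atp5j the YY1 letters and Atp5g3 the ERR letters. The letters of the core promoter box stood in 3 members (8.33%, against 15.7% and 9.22%). A match describes letters and is neither a bound site nor a cause.

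In complex II 2 of 4 genes were called lower with age. The 4 genes had log2 fold changes from −0.35 to −0.19 (median −0.27), all 4 with an unadjusted p under 0.05. Their sum was 1112 to 1298 CPM in young kidneys, 879 to 1136 in old ones and 835 to 1172 in fed ones, so 2 old kidneys reached the young range.

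Sdha encodes the flavoprotein that oxidises succinate. Its level was 378 to 417 CPM in young kidneys (median 402), 293 to 372 in old (median 331) and 289 to 370 in kidneys of fed mice (median 358). Every old kidney, fed or not, lay below every young one. Sdha fell with age by 0.26 ± 0.07 on the log2 scale (adjusted p = 0.0222). The call was lost without old replicate 7 (adjusted p = 0.0520) or without young replicate 2 (adjusted p = 0.0676). It was also lost with the replicate number as a block in the fit.

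Sdhc encodes a membrane anchor of the complex that binds haem and ubiquinone. It measured 250 to 317 CPM in young (median 274), 179 to 246 in old (median 224) and 189 to 276 in kidneys of fed mice (median 225). Young and old kidneys did not overlap, and the fed kidneys spanned the gap between them. The fall with age was 0.35 ± 0.09 (adjusted p = 0.00950) and was called in all 32 alternatives run. Sdhb, the iron-sulfur subunit, had a log2 fold change of −0.19 ± 0.08 (adjusted p = 0.175) and Sdhd, the other anchor, of −0.27 ± 0.11 (adjusted p = 0.129).

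In complex III all 9 genes had estimates below 0 (median −0.20) and 1 was called. Their sum ran from 2218 to 2714 CPM in young, from 1791 to 2309 in old and from 1628 to 2324 in kidneys of fed mice. The called gene, Uqcrfs1, encodes the Rieske iron-sulfur protein, which takes electrons from ubiquinol and moves them to cytochrome c1. Kidneys of young mice held 262 to 363 CPM of it (median 313), old kidneys 169 to 272 (median 222) and fed kidneys 171 to 268 (median 202). The ranges overlapped at the edge, where the lowest young kidney, replicate 5, lay below the highest old one, replicate 3. Uqcrfs1 fell by 0.49 ± 0.10 (adjusted p = 0.00262), the largest fall among the tested members, and was called in all 32 alternatives.

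The other genes of complex III lay closer to the young level. Uqcrc1, a core subunit, measured 251 to 283 CPM in young (median 260), 203 to 270 in old (median 240) and 169 to 283 in fed kidneys (median 241). These groups overlapped, and the log2 fold change with age was −0.16 ± 0.09 (adjusted p = 0.306). Uqcrc2, the second core subunit (−0.23 ± 0.08, adjusted p = 0.0841), Uqcrq, a small subunit (−0.26 ± 0.09, adjusted p = 0.0719), and Cyc1, which encodes cytochrome c1 itself (−0.17 ± 0.09, adjusted p = 0.310), did not pass either. The small subunits Uqcrb, Uqcr10 and Uqcr11 had −0.21, −0.20 and −0.17 (adjusted p = 0.260, 0.242 and 0.282). Uqcrh, the hinge protein that contacts cytochrome c1, was nearest to 0 (−0.14 ± 0.08, adjusted p = 0.305).

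Cycs encodes cytochrome c, the mobile carrier between complexes III and IV that also triggers apoptosis when it leaves mitochondria. Its level was 42.0 to 57.8 CPM in young (median 47.7), 23.4 to 53.3 in old (median 45.4) and 28.2 to 52.1 in fed kidneys (median 45.7). The groups overlapped widely, and the difference between old and young did not pass (−0.19 ± 0.13, adjusted p = 0.465).

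Complex IV gave the most varied picture. Of its 19 genes 15 were tested; 4 were called lower, 1 higher and 12 were below 0 (median −0.21). The genes above 0 were Cox6b2, Cox7a2l and Cox5b, a subunit that binds zinc (0.02 ± 0.08, adjusted p = 0.927). The sum of the complex was 4804 to 5412 CPM in young kidneys, 3839 to 4699 in old ones and 3707 to 4962 in fed ones, with no old kidney reaching the lowest young one.

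Cox8a encodes the ubiquitous form of subunit 8, a short membrane-spanning subunit. It stood at 678 to 823 CPM in young (median 774), at 530 to 664 in old (median 605) and at 499 to 840 in fed kidneys (median 652). Young and old did not overlap, while the fed group spread over both, with its top kidney, replicate 6, above all young ones. Cox8a fell with age by 0.36 ± 0.09 (adjusted p = 0.00615), in all 32 alternatives.

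Cox6b1 encodes the ubiquitous form of subunit 6b, which faces the intermembrane space at the cytochrome c side. Its level was 497 to 586 CPM in young (median 552), 386 to 493 in old (median 460) and 416 to 529 in fed kidneys (median 448). No old kidney reached the young range, and some fed ones did. The fall of 0.27 ± 0.08 (adjusted p = 0.0196) lost its call only without young replicate 4 (adjusted p = 0.0510).

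Cox6b2, the form of the same subunit best known from testis, was the only member called higher with age. Young kidneys held 9.56 to 16.5 CPM (median 13.3), old ones 15.7 to 25.9 (median 20.5) and fed ones 15.5 to 27.4 (median 20.0). The 1 old kidney within the young range was replicate 5. Cox6b2 rose by 0.63 ± 0.16 (adjusted p = 0.0130), with counts of 45 to 212 per library behind these values; without young replicate 4, the lowest of the young, the adjusted p was 0.0552.

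Both forms of subunit 6b thus differed with age in opposite directions. Cox6b2 made up 1.60% to 2.99% of the summed CPM of both in young kidneys (median 2.42%), 3.48% to 5.41% in old (median 4.22%) and 2.90% to 6.18% in fed kidneys (median 3.92%). The old and the young shares did not overlap, and Cox6b1 kept over 93.8% of the sum in every kidney.

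Cox6c2 was the member with the lowest adjusted p in this comparison. GENCODE M21 lists it as a processed pseudogene, and 52.7% of the 50-base words in the last 500 bases of its transcript are shared with Cox6c, the parent gene of subunit 6c. Its level was 142 to 170 CPM in young (median 151), 94.3 to 130 in old (median 113) and 102 to 134 in fed kidneys (median 123), and both old groups lay wholly below the young one. It fell by 0.42 ± 0.08 (adjusted p = 0.000987). Cox6c itself had −0.21 ± 0.08 (adjusted p = 0.0900). Since how the counting assigned shared reads cannot be seen in the table, Cox6c2 is uncertain as a gene of its own; without it, an alternative chosen after seeing the data, 12 of 45 tested members were called lower and 1 higher.

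Cox5a, a subunit on the matrix side, measured 414 to 479 CPM in young (median 440), 322 to 422 in old (median 372) and 291 to 410 in fed kidneys (median 380). Of the 8 old kidneys, replicates 3 and 4 lay within the young range and all fed kidneys lay below it. The fall of 0.26 ± 0.08 (adjusted p = 0.0392) was close to the threshold and was lost in 10 of 32 alternatives, among them each of old replicates 1, 2, 7 and 8 and young replicates 1 to 4 left out (adjusted p up to 0.0903).

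Cox4i1, the main form of the largest nuclear-encoded subunit, measured 582 to 691 CPM in young (median 627), 511 to 663 in old (median 614) and 520 to 698 in fed kidneys (median 634). The groups overlapped for most of their range, and the log2 fold change with age was −0.07 ± 0.08 (adjusted p = 0.667), with a 95% interval of −0.23 to 0.08. Cox4i2, the form associated with oxygen sensing in lung and carotid body, was at the limit of detection with 0 to 15 counts per library and was not tested. Its level was 0.145 to 2.04 CPM in young (median 0.462), 0 to 2.69 in old (median 1.04) and 0.164 to 2.25 in fed kidneys (median 1.07), which overlapped fully.

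Cox7a2l, a gene of the subunit 7a family, was also above 0. It measured 25.4 to 37.3 CPM in young (median 31.9), 29.4 to 42.3 in old (median 39.6) and 36.5 to 55.5 in fed kidneys (median 42.1). Of the 8 old kidneys 7 lay above the young median, but the difference between old and young was not called (0.27 ± 0.12, adjusted p = 0.169). Its share in the summed CPM of the subunit 7a genes (Cox7a1, Cox7a2 and Cox7a2l) was 4.62% to 6.66% in young (median 6.09%), 5.85% to 8.98% in old (median 8.13%) and 7.45% to 11.7% in fed kidneys (median 9.32%). The fed kidneys all lay above the young ones in this share.

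**Figure D2:**
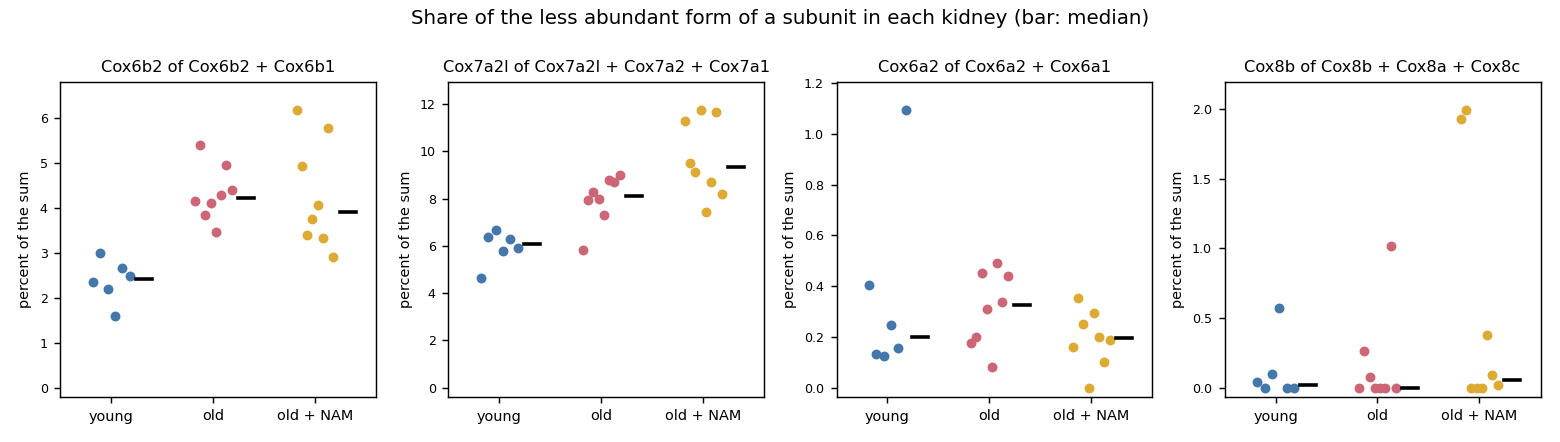
Each point is 1 kidney; the vertical axis gives the percent that 1 form of a complex IV subunit takes of the summed CPM of the forms named above each panel, and bars are group medians. The Cox6b2 share is 1.60% to 2.99% in young and 3.48% to 5.41% in old kidneys, while the Cox8b share is at most 0.573% in young, 1.02% in old and 1.99% in fed kidneys.

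The other ubiquitous subunits of complex IV were below 0 and not called: Cox6a1 (−0.18 ± 0.08, adjusted p = 0.190), Cox7a2 (−0.19 ± 0.08, adjusted p = 0.142), Cox7b (−0.30 ± 0.11, adjusted p = 0.0887) and Cox7c (−0.33 ± 0.12, adjusted p = 0.0966). All 8 old kidneys lay below the young median in each of these.

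Other forms of complex IV subunits, among them those known from heart, skeletal muscle and brown fat, were scarce beside the main forms. Cox6a2 was tested at 0.729 to 4.16 CPM in old kidneys and did not pass (−0.23 ± 0.53, adjusted p = 0.859). Cox7a1 had 13.6 to 25.6 CPM in old kidneys and did not pass either (−0.13 ± 0.16, adjusted p = 0.706). Cox7b2 held counts in only 3 of 22 libraries and Cox8c in none. Cox8b, a form of subunit 8 expressed in brown fat and muscle, was absent from 11 of 22 libraries and was highest in nicotinamide replicate 2 (11.5 CPM), nicotinamide replicate 1 (9.84), old replicate 7 (5.44), young replicate 4 (4.70) and nicotinamide replicate 6 (3.21). These 5 libraries were also the 5 highest in Ucp1, the uncoupling protein of brown fat, with 43.5, 24.1, 14.0, 4.07 and 7.60 CPM in that order, and the 5 highest in Cidea, a lipid droplet protein of brown fat. Of the muscle genes, Acta1 reached 1.35 CPM in nicotinamide replicate 6, 1 of these 5 libraries. Ckm and Mb reached at most 0.327 and 0.259 CPM in any library, and Myh2 and Myh4 had no count. The whole list of 10 striated muscle markers had mean sums of 24.2 CPM (young), 17.9 (old) and 13.8 (fed). The 1 tested gene of that list, which is also on the list of distal tubule markers, had a log2 fold change of −0.44 with age and was not called. The sums of the list therefore need not stand for muscle. For the list of 5 brown adipocyte markers the mean sums were 150 CPM (young), 145 (old) and 149 (fed). Ppargc1a alone had a young mean of 147 CPM. The part of brown fat or muscle tissue in the Cox8b counts was not tested.

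Complex V had the most called members. Of its 18 genes 17 were tested, 6 were called lower, none higher, and 15 were below 0 (median −0.25). The sum was 6345 to 7066 CPM in young kidneys, 4798 to 6211 in old ones and 4448 to 6468 in fed ones, so that no old kidney reached the young range.

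The catalytic head gave 3 of the calls. Atp5b encodes subunit beta, which carries the catalytic sites; it measured 871 to 997 CPM in young (median 976), 664 to 827 in old (median 760) and 578 to 861 in fed kidneys (median 738). Atp5a1 encodes subunit alpha, its partner in the ring of the head; it measured 1329 to 1452 CPM in young (median 1374), 994 to 1225 in old (median 1102) and 956 to 1299 in fed kidneys (median 1121). For both genes every old kidney, fed or not, lay below every young one. Atp5b fell by 0.35 ± 0.07 (adjusted p = 0.00265) and Atp5a1 by 0.32 ± 0.07 (adjusted p = 0.00397), and neither call was lost in any of 32 alternatives.

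Atp5c1 encodes subunit gamma, the shaft that turns inside the head. Its level was 110 to 153 CPM in young (median 132), 88.7 to 124 in old (median 111) and 98.7 to 126 in fed kidneys (median 111), with 5 old kidneys within the young range. The fall of 0.28 ± 0.09 (adjusted p = 0.0416) was lost in 14 of 32 alternatives, including the fits without old replicates 2, 5, 6, 7 or 8 and without young replicates 1, 2, 4 or 6 (highest adjusted p of these 0.120, without young replicate 6). Without young replicate 6, old replicate 7 and nicotinamide replicates 1 and 7 together the adjusted p was 0.176. The smaller shaft subunits Atp5d (−0.11 ± 0.09, adjusted p = 0.493) and Atp5e (−0.07 ± 0.09, adjusted p = 0.722) were not called.

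Subunit c, which forms the rotating ring in the membrane, comes from 3 genes that encode the same mature protein. Nearly all of the counts of these 3 genes were assigned to Atp5g3. It measured 1912 to 2119 CPM in young (median 2028), 1325 to 1789 in old (median 1609) and 1209 to 1734 in fed kidneys (median 1613). Every old kidney, fed or not, lay below every young one. Atp5g3 fell by 0.34 ± 0.08 (adjusted p = 0.00424), in all 32 alternatives. Atp5g1 measured 37.4 to 63.7 CPM in young (median 47.4), 31.7 to 50.9 in old (median 41.9) and 38.3 to 58.0 in fed kidneys (median 48.9), overlapped between groups and was not called (−0.22 ± 0.12, adjusted p = 0.303). Atp5g2 had 0.610 to 3.76 CPM in old kidneys. At their transcript ends Atp5g1 and Atp5g2 share 45.9% and 47.3% of 50-base words with other annotated genes, so their levels are uncertain; Atp5g3 shares none.

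The other calls of complex V were small subunits. Atp5j, coupling factor 6 in the stalk, measured 164 to 181 CPM in young (median 174), 104 to 173 in old (median 134) and 104 to 186 in fed kidneys (median 122). Atp5mpl, a short membrane subunit, measured 253 to 292 CPM in young (median 283), 173 to 264 in old (median 217) and 180 to 277 in fed kidneys (median 234). For both, the old kidney within the young range was replicate 3, and all 8 old kidneys lay below the young median.

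Atp5j fell by 0.39 ± 0.12 (adjusted p = 0.0398), a call lost in 12 of 32 alternatives, among them old replicates 2, 5, 7 and 8 and young replicates 1, 2, 3, 4 and 6 left out in turn (highest adjusted p of these 0.0807). Atp5mpl fell by 0.32 ± 0.09 (adjusted p = 0.0195) and lost the call without old replicate 7 (adjusted p = 0.0507) or young replicate 2 (adjusted p = 0.0538). Atp5k, the membrane subunit e, did not overlap between young and old kidneys but did not pass (−0.32 ± 0.11, adjusted p = 0.0581). Atp5l and Atp5s were the members of the complex above 0 and were not called (0.12 ± 0.19 and 0.11 ± 0.25, adjusted p = 0.781 and 0.857). The other uncalled subunits included Atp5f1, subunit b of the stator (−0.27 ± 0.09, adjusted p = 0.0620), Atp5h, subunit d of the stator (−0.25 ± 0.11, adjusted p = 0.160), Atp5j2, the membrane subunit f (−0.21 ± 0.09, adjusted p = 0.143), and Atp5o, which holds the stator to the head (−0.06 ± 0.10, adjusted p = 0.810). Over all 11 uncalled genes of the complex adjusted p ran from 0.0581 to 0.974.

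**Figure D3:**
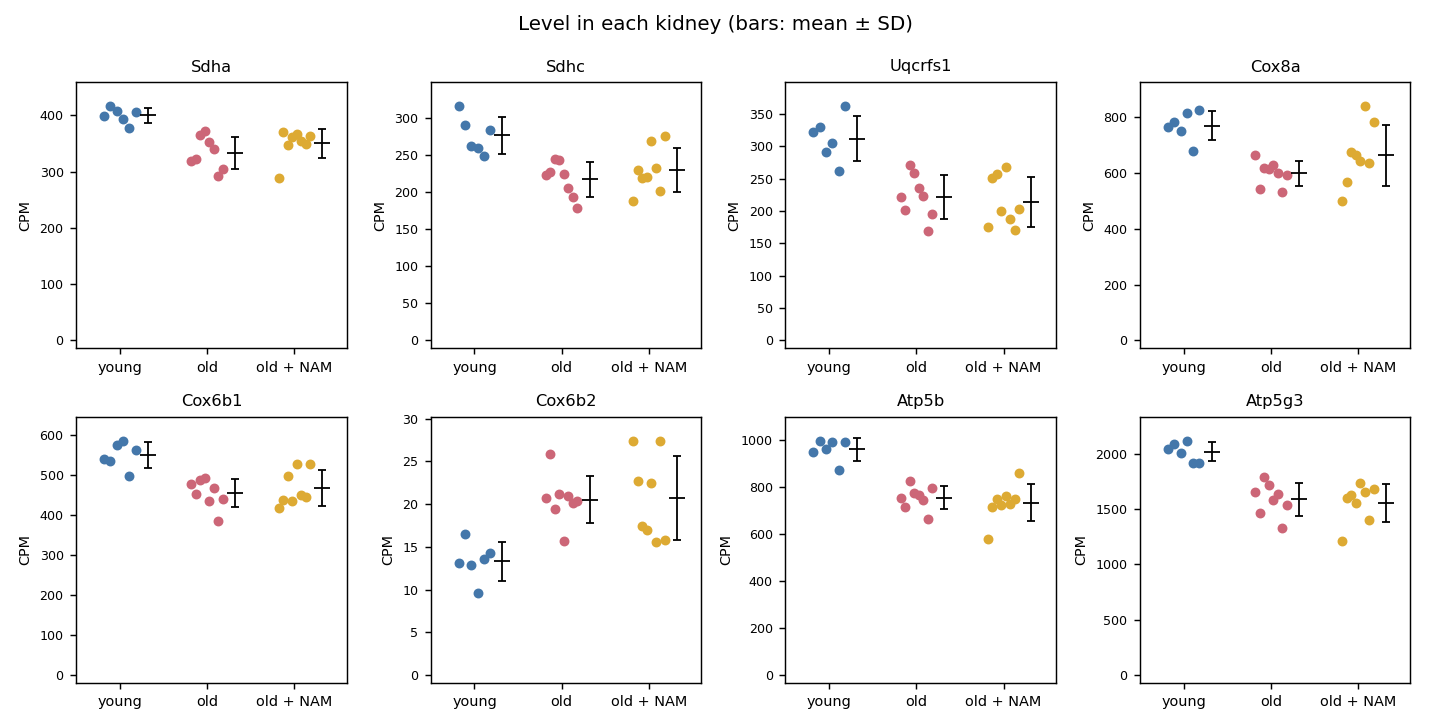
Each point is 1 kidney, with CPM on an axis that includes 0 and bars for the group mean ± SD. Old kidneys lie below all young ones for Sdha, Sdhc, Cox8a, Cox6b1, Atp5b and Atp5g3, Uqcrfs1 overlaps at its edge, and Cox6b2 is higher in old kidneys (15.7 to 25.9 CPM) than in young (9.56 to 16.5 CPM).

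Reads that fit several places in the genome are a limit for this gene family, which has many processed pseudogenes. The table held 0 reads with more than 1 alignment in every library. Compared with all transcripts of GENCODE M21, 29 of the 51 members shared no 50-base word of their last 500 bases with another gene, and 25 of these were tested. Of these 25, 7 were called lower and 1 higher, with a median log2 fold change of −0.20; of the other 21 tested members 6 were called lower, with a median of −0.22.

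Feeding nicotinamide to old mice was compared with untreated old mice of the same age, to ask whether the supplement moved these transcripts. No member was called, against 4 genes or 0.0272% of all genes tested with edgeR. No member reached an unadjusted p under 0.05, where 6.18% of all genes did, and DESeq2 and limma-voom called no member either. The median log2 fold change of the members was 0.03, with medians of 0.01 for complex II, −0.0056 for complex III, 0.04 for complex IV and 0.04 for complex V. The median over all members rested on single libraries: it was −0.0024, with 24 of 46 below 0, without old replicate 7, 0.0022 without nicotinamide replicate 5 and 0.063 without nicotinamide replicate 1. Because the untreated old kidneys served in both comparisons, the estimates of age and of feeding share an error and are set side by side without a correlation.

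The members with the lowest p of each complex in this comparison were Sdha, Uqcrh, Cox8a and Atp5g1. Sdha differed by 0.07 ± 0.07 between fed and untreated old kidneys (95% interval −0.07 to 0.21, adjusted p = 0.925) and Cox8a by 0.15 ± 0.08 (−0.01 to 0.31, adjusted p = 0.819). Uqcrh measured 432 to 572 CPM in young (median 455), 369 to 480 in old (median 433) and 353 to 431 in fed kidneys (median 397), and differed between fed and untreated old kidneys by −0.12 ± 0.07 (−0.26 to 0.03, adjusted p = 0.846). Atp5g1 had the highest estimate of the tested members, 0.22 ± 0.11 (−0.0028 to 0.45, adjusted p = 0.801). The lowest was that of Cox6a2 (−0.69 ± 0.50, adjusted p = 0.889), at levels of 0 to 3.04 CPM in the fed kidneys. For Cycs the difference was 0.05 ± 0.12 (adjusted p = 0.975). In every one of these genes the fed and the untreated old kidneys overlapped.

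Fed old kidneys were also compared with young ones, again with most members below 0 (39 of 46, median −0.21). Here 11 members were called lower, against 3.96% of all genes, and 2 higher, against 4.73%; 7 did not overlap with young and were lower, against 1.08% of all genes. Atp5b (−0.39 ± 0.07, adjusted p = 0.000650), Uqcrfs1 (−0.54 ± 0.10, adjusted p = 0.000755), Atp5g3 (−0.37 ± 0.08, adjusted p = 0.00163) and Atp5a1 (−0.30 ± 0.07, adjusted p = 0.00640) fell in fed old kidneys relative to young. Cox6b2 (0.64 ± 0.16, adjusted p = 0.00872) and Cox7a2l (0.46 ± 0.12, adjusted p = 0.00853) rose; the call of Cox6b2 was lost without young replicate 6, old replicate 7 and nicotinamide replicates 1 and 7 (adjusted p = 0.0911). Counting both directions, 9 members were called in this comparison and in that of untreated old with young kidneys; both use the same young libraries, so the shared calls are not separate support. Sdha (−0.19 ± 0.07, adjusted p = 0.0994) and Cox8a (−0.21 ± 0.09, adjusted p = 0.117) were not called in fed against young kidneys. The total of 13 calls became 21 without nicotinamide replicate 5, 20 without nicotinamide replicate 8, and 7 without the same 4 libraries.

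**Figure D4:**
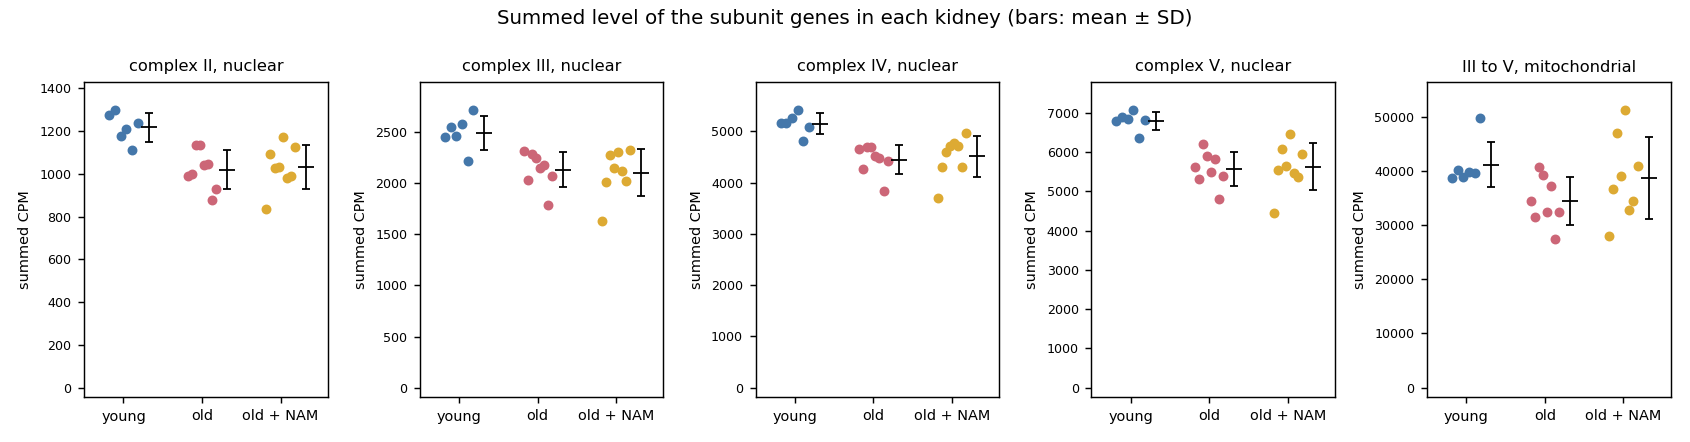
Each point is 1 kidney. The vertical axis is the summed CPM of the genes of 1 complex, with the group mean ± SD beside it. The last panel sums the mitochondrially encoded subunits of complexes III to V and holds mainly mt-Cytb (mean 38103 of 41149 CPM in young kidneys). Complex V ranges from 6345 to 7066 CPM in young and from 4798 to 6211 CPM in old kidneys; nicotinamide replicate 1 is the lowest point of its group in all 5 panels.

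Other genes of the pathway were read from lists made for this comparison. Complex I, the NADH dehydrogenase that was not part of the rule, had 11 of 39 tested subunit genes called lower in old kidneys and none higher (median −0.24), led by Ndufa1 (−0.50 ± 0.10, adjusted p = 0.000771), Ndufb5 (−0.42 ± 0.09, adjusted p = 0.00192) and Ndufc2 (−0.37 ± 0.08, adjusted p = 0.00244). The summed members stood to summed complex I at 2.13 to 2.19 in young kidneys, 2.09 to 2.18 in old ones and 1.98 to 2.25 in fed ones. Of 38 tested assembly factors of complexes II to V, 1 was called lower, Tmem70, which helps build ATP synthase (−0.35 ± 0.11, adjusted p = 0.0416), and none higher (median −0.17). Under symbols that the rule does not cover, Atpif1, the inhibitor protein of ATP synthase, fell by 0.34 ± 0.10 (adjusted p = 0.0347), whereas Usmg5 (−0.34 ± 0.14, adjusted p = 0.156), a membrane subunit of ATP synthase, and Ndufa4 (−0.19 ± 0.10, adjusted p = 0.277), a subunit of complex IV, did not pass; these 3 genes were added after their table had been seen.

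Of 31 tested genes for other mitochondrial membrane proteins, carriers, import and chaperones, 6 were called lower and none higher (median −0.18). Slc25a5, an ADP/ATP carrier, fell by 0.52 ± 0.10 (adjusted p = 0.000791), Slc25a3, the phosphate carrier, by 0.29 ± 0.07 (adjusted p = 0.0117) and Hspd1, the matrix chaperonin HSP60, by 0.51 ± 0.10 (adjusted p = 0.00139). Among 23 regulators of mitochondrial biogenesis 2 were called lower and none higher (median −0.11): Esrra, the nuclear receptor ERR alpha, fell by 0.42 ± 0.13 (adjusted p = 0.0347), and Prkaa2, a catalytic subunit of AMPK, by 0.44 ± 0.10 (adjusted p = 0.00533). The coactivator gene Ppargc1a was not called (−0.08 ± 0.09, adjusted p = 0.676). With nicotinamide, none of the genes in these lists was called against untreated old kidneys.

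The subunits of complexes III to V encoded in mitochondrial DNA could be followed for 2 of 6 genes. The other 4, among them mt-Atp6 and mt-Atp8 of complex V, were below the filter on low counts, and why was not tested. The sum of all 6 was mainly cytochrome b (mt-Cytb), with a mean of 38103 of 41149 CPM in young kidneys, against 3046 for mt-Co1. Cytochrome b, mt-Cytb, measured 35536 to 46847 CPM in young (median 36679), 24704 to 37702 in old (median 30241) and 25927 to 48333 in fed kidneys (median 35218), with a log2 fold change of −0.28 ± 0.11 with age that did not pass (adjusted p = 0.115). For mt-Co1, the catalytic core of complex IV, the values were 2819 to 3240 CPM (median 3067), 2721 to 3406 (median 3033) and 2095 to 2972 (median 2662) in the same order, and the difference with age was −0.01 ± 0.07 (adjusted p = 0.968). Both genes overlapped between young and old kidneys.

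**Figure D5:**
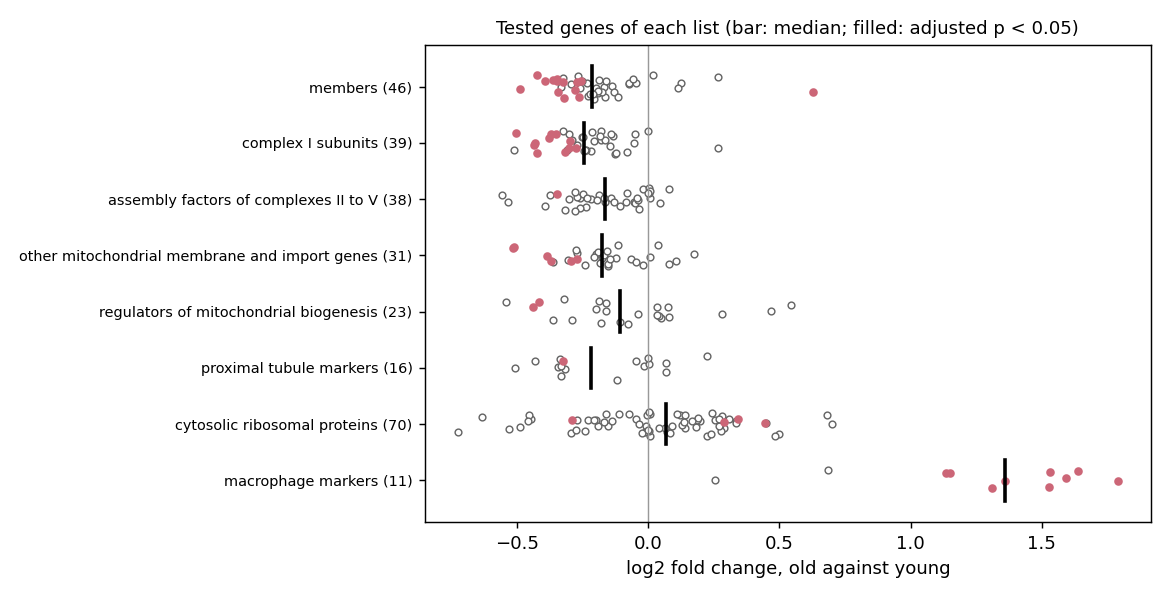
Each point is 1 tested gene placed by its log2 fold change in old against young kidneys, filled where the adjusted p is under 0.05; bars are medians and the number of tested genes stands beside each list name. The medians of the members (−0.22) and of complex I (−0.24) lie left of 0, that of cytosolic ribosomal proteins at 0.07 and that of macrophage markers at 1.36.

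Cytosolic ribosomal proteins, another large group of short transcripts, served as a contrast, though their levels were low here. Their 82 entries summed to a mean of 3902 CPM in young kidneys, against 15693.5 for the 51 members, and Rps6 had no count. Why these levels were low was not tested. Of 70 tested, 1 was called lower and 3 higher with age, with a median of 0.07. The ratio of summed members to summed ribosomal proteins was 3.92 to 4.14 in young kidneys (median 4.02), 2.91 to 3.30 in old (median 3.23) and 2.42 to 3.58 in fed kidneys (median 2.98), and no kidney of either old group reached the young range.

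Relative to markers of the proximal tubule, the members of old and young kidneys overlapped. The ratio of summed members to the 16 summed proximal tubule markers was 0.410 to 0.452 in young kidneys (median 0.426), 0.422 to 0.499 in old (median 0.440) and 0.378 to 0.665 in fed kidneys (median 0.412). Without Kap, an androgen-dependent gene and the most abundant of these markers, it was 0.874 to 1.03 in young (median 0.926), 0.893 to 1.03 in old (median 0.940) and 0.844 to 1.29 in fed kidneys (median 0.963). The groups overlapped in both ratios. The median log2 fold change of the 16 markers with age was −0.22, with 1 called lower, Hnf4a, a transcription factor of the proximal tubule (−0.32 ± 0.08, adjusted p = 0.0120), and none higher. Of 11 macrophage markers 9 were called higher and none lower, of 7 smooth muscle markers 4 higher, and of 9 intercalated cell and 7 distal tubule markers 2 and 3 were called lower. Of 7 T cell, 5 B and plasma cell and 4 brown adipocyte markers 2, 2 and 1 were called higher, of 7 thick limb markers 1 was called lower, and none of 6 adipocyte and 5 urothelium markers was called. The part of these cell types in the members' differences was not tested.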

How the data were processed

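Kidney RNA of 22 mice was measured with the QuantSeq 3′ mRNA kit in the forward version, 1 library per animal. The values are raw read counts per mouse gene as deposited; per the submitters' processing notes the authors used STAR and HTSeq, and the notes name GRCh38, a human build, although the identifiers are of mouse. For versions, strand setting and treatment of duplicates: not given in the sources used here. Gene symbols and transcripts came from GENCODE M21; no gene coordinates are printed, and promoter positions are those of RefSeq on GRCm38.p6.

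The members, the gene lists, the alternatives and the rule for named genes were chosen with earlier results of these data known. The filterByExpr function of edgeR 4.0.16 (at least 10 counts, a total of at least 15) left 14683 genes, which hold 99.8% of the gene counts. A single quasi-likelihood fit covered the 22 libraries (TMM, robust dispersions, no covariates), tested two-sided as contrasts of the groups, with Benjamini-Hochberg adjustment over all genes tested. The SE of a log2 fold change was taken from its F statistic, and 95% intervals use the degrees of freedom of the fit. Per rule, full values are given for called members (at most 6 per complex), for the lowest p of a complex where none is called, and for Sdha, Uqcrc1, Cycs, Cox4i1, Cox4i2 and Atp5b; Cox7a2l, Cox8b, Atp5k and the genes of subunit c were added after their values were seen. From each pathway list at most 3 genes with the lowest p are named, and Ppargc1a was added. DESeq2 1.42.0 and limma-voom (limma 3.58.1) were alternatives, beside other scalings and filters and the leaving out of libraries. Labels do not say whether replicate numbers mark a shared litter or day. Counts per library set the counting error, and copies made by PCR are not known to have been removed.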

Additional observations from a re-analysis of the deposited data

Results flagged for a closer look

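In 3 of 72 groups of values, 1 kidney stood apart from the rest of its group by its gap to the nearest value; chance alone marks about 1 group in 20. Young replicate 6, the library of lowest depth, held 8.92 CPM of Cox6a2, the muscle form of subunit 6a, where the next young kidney held 3.94. The same library held 572 CPM of Uqcrh, the hinge protein of complex III, and the next young kidney 460. Nicotinamide replicate 1 held 289 CPM of Sdha, and the next lowest kidney of its group held 348.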

How the results depend on the processing

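The count of 14 called members in old against young kidneys was 10 to 20 in the other alternatives and 9 to 20 when 1 library was left out, with 9 without old replicate 7 and without young replicates 2 or 4. All of Sdhc, Uqcrfs1, Cox6c2, Cox8a, Atp5a1, Atp5b and Atp5g3 kept their call in all 32 alternatives. No member was called with nicotinamide against untreated old kidneys in any of them. Fed against young kidneys gave 13 calls, 9 to 21 with 1 library left out and 7 without young replicate 6, old replicate 7 and nicotinamide replicates 1 and 7. Over all genes, old against young gave 1034 calls (668 to 1305 with 1 library left out), fed against young 1277 (835 to 1438, and 801 without these 4 libraries), and fed against untreated old 4 (1 to 9, and 10 with DESeq2, 7 with no filter, 2 without robust dispersions and 1 without mitochondrially encoded and ribosomal RNA genes). Estimates near 0 changed sign for fed against untreated old kidneys: with 1 library left out Atp5b ran from −0.077 to 0.0026 (above 0 without nicotinamide replicate 1), Cycs from −0.034 (without old replicate 8) to 0.13, and Uqcrc1 from −0.044 to 0.056, with 0.016 without the 4 libraries. The cause of these changes was not tested.

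The replicate numbers did not pair the libraries: over 20 pairs of equal number the correlation of deviations was −0.082 to 0.059, and 0 lay above 0.1. With the number as a replicate block, 10 members were called in old against young, 0 in fed against untreated old and 8 in fed against young kidneys. Depth limits Cox4i2, Cox6a2, Cox7b2, Cox8b, Cox8c and Atp5g2, which had few counts.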
